A study of Mus musculus with 6 samples.

Results

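The Notch receptors and the ligands that bind them were followed in liver RNA of mouse pups homozygous for a Jag1 mutation. The 8 genes were taken by symbol from the gene table: the ligands Jag1, Jag2, Dll1 and Dll4 and the receptors Notch1, Notch2, Notch3 and Notch4. They are 8 of 24489 gene entries, each symbol has a single entry, and all 8 passed the filter on low counts. Polyadenylated RNA from 1 liver lobe of untreated pups at postnatal day 10 was sequenced in 6 libraries without strand information. Of these, 3 were labelled Jag1Ndr/Ndr, homozygous for the Nodder (Ndr) allele of Jag1, and 3 were labelled Jag1+/+. Both genotypes had the C3H/C57bl6J strain background, and the mutation is in the germ line, so every cell type of the liver carries it. The question was whether a mutated ligand goes with other transcript levels of its own gene, of the ligands beside it or of the receptors.

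Notch signalling passes between touching cells. A ligand of the Jagged or Delta-like type on one cell binds a receptor on the next, the receptor is cut by an ADAM protease and then by gamma-secretase, and the freed intracellular part joins the DNA-binding protein RBPJ to switch on Hes and Hey genes. In the liver, JAG1 on portal vein mesenchyme signals to NOTCH2 on nearby hepatoblasts to form bile ducts, and loss of either gene's function causes Alagille syndrome in people. Dll4, Notch1 and Notch4 are best known from endothelium, and Notch3 from the mural cells around vessels.

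The Ndr allele is a missense change of a histidine in the second EGF-like repeat of JAG1, a part of the protein that helps hold the receptor. The wild-type coding sequence of that repeat is shown because it is where both genotypes differ by design. It is read from a GENCODE transcript of Jag1 on GRCm38 and lies in exon 6 of 26 at chr2:137096200-137096286 on the minus strand, codons 265 to 293 of 1218. Capitals mark codon 268 (137096275 to 137096277), the first of the 2 histidine codons in the repeat.
Jag1 second EGF-like repeat: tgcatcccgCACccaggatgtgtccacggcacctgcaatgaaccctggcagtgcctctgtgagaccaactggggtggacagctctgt
The gene table counts reads of both alleles alike, so the genotype labels were not checked by it. A missense transcript is counted as fully as a wild-type one, and a Jag1 count says nothing of whether the protein works.

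The libraries held 12992592 to 59653111 reads over gene entries, and 22511 of these reads in all fell on the 8 genes. A floor of 3 reads corresponds to 0.0503 CPM (reads scaled to library size) in the deepest library and 0.231 CPM in the shallowest. These floors use library totals alone. The CPM levels of genes given below also use TMM factors, which assume that most genes do not differ. The floors are therefore not on the same scale as those levels. Xist and Y-linked reads put Jag1+/+ replicate 1 and Jag1Ndr/Ndr replicates 2 and 3 as female and the other 3 as male, so Jag1Ndr/Ndr replicate 1, the shallowest library, was also the only male of its genotype. Nothing in the labels ties a library to its own animal, so the p-values measure the spread between these libraries, part of which may be technical. Over the 13819 genes tested, the median coefficient of variation was 11.8% in Jag1+/+ and 22.2% in Jag1Ndr/Ndr.

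None of the 8 genes differed between the genotypes at a threshold of 0.05 after Benjamini-Hochberg adjustment over all genes in edgeR (quasi-likelihood fit). In the same test, 1054 of 13819 genes passed, 7.63% of those tested, with 653 (4.73%) higher and 401 (2.90%) lower in Jag1Ndr/Ndr. At an unadjusted p under 0.05 the count was also 0 of 8, against 22.5% of all genes, and DESeq2, which passed 13.7% of all genes, also called 0 of 8. The fitted log2 fold change, Jag1Ndr/Ndr over Jag1+/+, was positive for 3 of the genes and negative for 5. With library totals in place of TMM, where the median of all genes stood at 0.13, Notch2 and Notch3 turned positive. Relative to that median they stood at -0.09 and -0.07, beside -0.10 and -0.10 with TMM. Jag1 and Notch1 turned positive in limma on deposited RPKM with a pseudocount of 1, where the median of all genes was 0.18. Relative to it they stood at -0.16 and -0.15. In the main fit, the median of the 8 values was -0.09, beside 0.00 over all genes tested. The median of their absolute values was 0.16, beside 0.27. For each gene, the 95% interval given with it says how large a difference these libraries still allow.

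**Figure D1:**
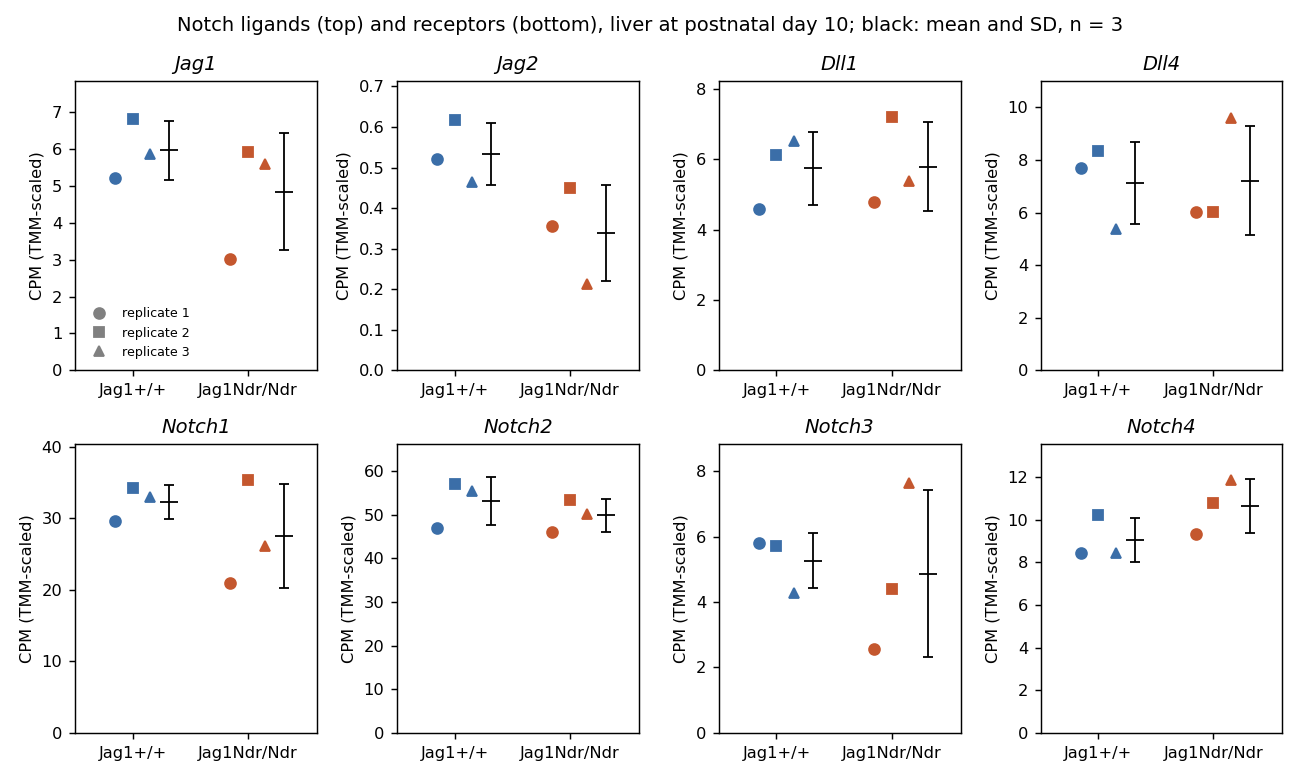
TMM-scaled CPM (vertical axes from 0) of the 4 ligands (top) and 4 receptors (bottom) in each library of Jag1+/+ (blue) and Jag1Ndr/Ndr (orange), with the shape giving the replicate number and black bars the mean and SD of 3 libraries. Jag2 is the gene whose genotypes do not overlap, and Jag1Ndr/Ndr replicate 1 is the lowest of the 6 libraries for Jag1, Notch1, Notch2 and Notch3.

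Among the ligands, Jag1 (RefSeq NM_013822, chr2:137081451-137116520), the mutated gene and the ligand needed for bile duct formation, stood at 5.21, 6.82 and 5.87 CPM in Jag1+/+ replicates 1, 2 and 3. In Jag1Ndr/Ndr replicates 1, 2 and 3 it stood at 3.01, 5.92 and 5.60 CPM. Replicate 1 of Jag1Ndr/Ndr was below every other library, while replicates 2 and 3 lay within the Jag1+/+ range. The means were 5.96 ± 0.807 (SD, n = 3) and 4.84 ± 1.59 CPM (SD, n = 3). The log2 fold change was -0.28 (SE 0.28, 95% interval -0.93 to 0.37, edgeR adjusted p = 0.638), so the data allow a Jag1Ndr/Ndr level between 0.525 and 1.29 times that of Jag1+/+. Leaving out 1 library at a time, the estimate ran from -0.45 without Jag1Ndr/Ndr replicate 2 to -0.059 without Jag1Ndr/Ndr replicate 1.

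Jag1 was also split by sex, because the library that stood lowest was the single male of its genotype. Among females, the mean of both Jag1Ndr/Ndr libraries was 0.14 above the Jag1+/+ library on the log2 scale. Among males, the single Jag1Ndr/Ndr library was 1.07 below the mean of both Jag1+/+ libraries, a log2 ratio of -1.07. By the same means, the female and male log2 ratios also differed in sign for Dll1 (0.46 and -0.40) and Dll4 (0.019 and -0.19). The same was so for Notch1 (0.054 and -0.68), Notch2 (0.14 and -0.29), Notch3 (0.055 and -0.96) and Notch4 (0.42 and -0.0046). For Jag2 both were negative (-0.65 and -0.61). Library by library, the opposition held for Jag1, Dll1 and Notch2: in females each Jag1Ndr/Ndr library was above the Jag1+/+ library. In males the Jag1Ndr/Ndr library was below both Jag1+/+ libraries. The share of all genes with this opposition, by means or library by library, was not counted. Jag1Ndr/Ndr replicate 1 was the lowest library for 30.9% of all genes. A sex by genotype term, added after these values were seen, gave an edgeR adjusted p of 0.207 for Jag1 (unadjusted 0.0250), 0.322 for Dll1 and 0.321 for Notch2. No gene of 13819 passed the threshold in it, and 2762 had an unadjusted p under 0.05. With a single male Jag1Ndr/Ndr library, sex and that library cannot be told apart.

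Jag2 (NM_010588, chr12:112907803-112929812), the second Jagged ligand, was near the floor. It had 9, 19 and 18 reads in Jag1+/+ replicates 1, 2 and 3, and 4, 32 and 4 reads in Jag1Ndr/Ndr, which is 0.521, 0.617 and 0.465 CPM against 0.355, 0.449 and 0.213 CPM. The Jag1Ndr/Ndr values all lay below the Jag1+/+ values, the only 1 of 8 genes without overlap, beside 29.0% of all genes without overlap in either direction and 14.2% in this one. A log2 fold change of -0.56 (SE 0.42, 95% interval -1.51 to 0.39, edgeR adjusted p = 0.490) did not pass the test. In 2 of the Jag1Ndr/Ndr libraries the level rests on 4 reads.

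Dll1 (NM_007865, chr17:15367354-15376932), a Delta-like ligand that acts in many tissues, stood at 4.57, 6.13 and 6.51 CPM in Jag1+/+ and at 4.79, 7.21 and 5.39 CPM in Jag1Ndr/Ndr replicates 1, 2 and 3. Jag1+/+ replicate 1 was the lowest library and Jag1Ndr/Ndr replicate 2 the highest, and the genotypes overlapped. Its log2 fold change was 0.02 (SE 0.25, 95% interval -0.54 to 0.59, edgeR adjusted p = 0.973).

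Dll4 (NM_019454, chr2:119325784-119335666), the Delta-like ligand of endothelial cells, stood at 7.70, 8.34 and 5.37 CPM in Jag1+/+ and at 6.03, 6.01 and 9.60 CPM in Jag1Ndr/Ndr. Both the highest and the lowest library were a replicate 3, of Jag1Ndr/Ndr and Jag1+/+ respectively, and the genotypes overlapped. For Dll4 the log2 fold change was 0.02 (SE 0.27, 95% interval -0.60 to 0.64, edgeR adjusted p = 0.984). Summed counts of 12 endothelial markers were 697 to 789 CPM in Jag1+/+ against 698 to 776 CPM in Jag1Ndr/Ndr, and 0 of the 12 passed the test (edgeR, with 2 at an unadjusted p under 0.05, and 0 by DESeq2). The sum of 8 arterial markers was 68.5 to 88.0 CPM in Jag1+/+ and between 55.8 and 72.2 CPM in Jag1Ndr/Ndr, with 0 of 8 passing (edgeR, 3 at an unadjusted p under 0.05, and 1 by DESeq2). In whole tissue, fewer cells of a type and less RNA per cell cannot be told apart.

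Among the receptors, Notch2 (NM_010928, chr3:98013538-98150367), the receptor through which bile duct fate is set, had the narrowest interval of the 8 genes. It stood at 47.0, 57.1 and 55.4 CPM in Jag1+/+ and at 46.0, 53.3 and 50.1 CPM in Jag1Ndr/Ndr, with the genotypes overlapping. Its log2 fold change was -0.09 (SE 0.14, 95% interval -0.42 to 0.24, edgeR adjusted p = 0.772), which bounds the Jag1Ndr/Ndr level between 0.747 and 1.18 times that of Jag1+/+. It was the 1 gene of the 8 whose coefficient of variation was not larger in Jag1Ndr/Ndr, at 10.2% in Jag1+/+ and 7.39% in Jag1Ndr/Ndr.

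Notch1 (NM_008714, chr2:26457902-26503822), an endothelial and broadly used receptor, stood at 29.6, 34.3 and 32.9 CPM in Jag1+/+ and at 21.0, 35.4 and 26.2 CPM in Jag1Ndr/Ndr. Replicates 1 and 3 of Jag1Ndr/Ndr were below all Jag1+/+ libraries and replicate 2 was above them. The log2 fold change was -0.22 (SE 0.20, 95% interval -0.68 to 0.24, edgeR adjusted p = 0.587). Leaving out 1 library at a time, it ran from -0.45 without Jag1Ndr/Ndr replicate 2 (unadjusted p 0.0285, edgeR adjusted p 0.158) to -0.073 without Jag1Ndr/Ndr replicate 1.

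Notch3 (NM_008716, chr17:32120820-32166896), the receptor of vascular smooth muscle and pericytes, varied more within Jag1Ndr/Ndr than any of the other 7 genes. It stood at 5.79, 5.71 and 4.29 CPM in Jag1+/+ and at 2.57, 4.41 and 7.63 CPM in Jag1Ndr/Ndr, whose libraries were both the lowest and the highest of the 6. The coefficients of variation were 16.1% and 52.6%. For Notch3 the log2 fold change was -0.10 (SE 0.37, 95% interval -0.94 to 0.74, edgeR adjusted p = 0.917). Summed counts of 10 mural and smooth muscle markers were 113 to 141 CPM in Jag1+/+ against 148 to 213 CPM in Jag1Ndr/Ndr, while 0 of the 8 that could be tested passed (edgeR, 2 at an unadjusted p under 0.05, and 1 by DESeq2). Their part in the Notch3 level was not tested. The span of an antisense gene, Gm17276, overlaps that of Notch3 over 21024 bases, introns included. The kit does not keep strand, so reads from any shared exon stretch cannot be told apart, and overlap between exons was not computed. By the same measure, genes on the opposite strand overlap Dll1 (A930024N18Rik, 1873 bases) and Notch1 (0610009E02Rik, 1488 bases, and Gm13568, 414 bases). Others overlap Dll4 (Gm14207, 411 bases) and Notch4 (Gm20462, 408 bases). On the same strand, Gm42819 (5121 bases) and Gm42820 (3063 bases) overlap Notch2. Mir6941 (59 bases) overlaps Jag2 and Mir6996 (61 bases) overlaps Notch1, also on the same strand.

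Notch4 (NM_010929, chr17:34564286-34588543), a receptor largely of endothelial cells, stood at 8.45, 10.2 and 8.45 CPM in Jag1+/+ and at 9.31, 10.8 and 11.8 CPM in Jag1Ndr/Ndr. Replicates 2 and 3 of Jag1Ndr/Ndr were above all Jag1+/+ libraries, and replicate 1 lay between them. The log2 fold change was 0.24 (SE 0.18, 95% interval -0.18 to 0.66, edgeR adjusted p = 0.518).

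The spread between libraries of a genotype was also compared. For 7 of 8 the coefficient of variation was larger in Jag1Ndr/Ndr, as it was for 76.3% of all genes tested. For 4 of 8 the lowest of the 6 libraries was Jag1Ndr/Ndr replicate 1, beside 30.9% of all genes.

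**Figure D2:**
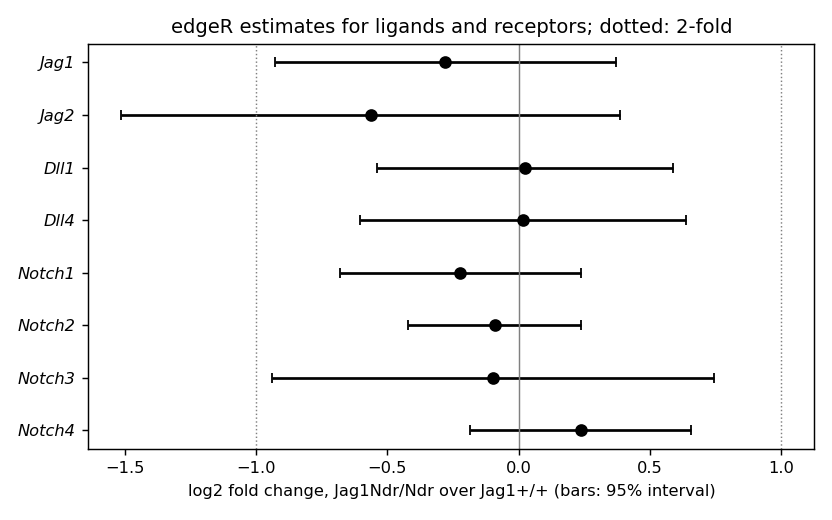
Fitted log2 fold change of each ligand and receptor, Jag1Ndr/Ndr over Jag1+/+ (horizontal axis), with bars for the 95% interval from edgeR over 3 libraries a genotype, a grey line at no change and dotted lines at 2-fold. Every interval spans 0, and the widest, of Jag2, reaches below -1, from -1.51 to 0.39.

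Levels of different genes were compared per transcript length, as RPKM (reads scaled to transcript length and library size) with the authors' scaling factor taken out. Averaged over the 6 libraries, the order was Notch2 at 5.07, Notch1 at 3.28, Dll4 at 2.30, Dll1 at 1.76, Notch4 at 1.55, Jag1 at 1.03, Notch3 at 0.668 and Jag2 at 0.111 RPKM. Of the genes tested, 49.0% had a lower mean RPKM than Notch2, and 0.687% a lower one than Jag2, so even the highest of the family lay near the middle of all expressed genes. Within single libraries, Notch2 exceeded Notch1 in 6 of 6, Notch4 exceeded Jag1 in 6 of 6, Jag1 exceeded Notch3 in 6 of 6 and Notch3 exceeded Jag2 in 6 of 6. The other neighbouring pairs were not separated in this way: Notch1 exceeded Dll4 in 5 of 6 libraries, Dll4 exceeded Dll1 in 4 of 6, and Dll1 exceeded Notch4 in 4 of 6. The log2 ratio of Notch2 to Notch1 was 0.65 ± 0.20 (SD, n = 6), and that of Notch3 to Jag2 was 2.56 ± 0.82 (SD, n = 6).

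Shares within a library do not depend on how libraries are scaled to each other. Jag1 made up 19.8%, 21.5% and 22.5% of the summed RPKM of the 4 ligands in Jag1+/+, and 14.1%, 20.9% and 18.2% in Jag1Ndr/Ndr. The means were 21.3% ± 1.38 and 17.7% ± 3.45 (SD, n = 3 each), with overlapping genotypes and a two-sided exact permutation p of 0.2, where 3 against 3 cannot go below 0.1. The difference of -3.55 percentage points was -1.73 without Jag1Ndr/Ndr replicate 1, -0.24 among females and -7.94 among males. Dll4 and Dll1 took most of the rest, Dll4 with 43.2% ± 7.46 and 45.6% ± 8.64 (SD, n = 3 each), and Dll1 with 33.0% ± 6.32 and 34.9% ± 6.48 (SD, n = 3 each). Jag2 held 2.68%, 2.64% and 2.42% in Jag1+/+ and 2.24%, 2.15% and 0.938% in Jag1Ndr/Ndr, without overlap.

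Among the receptors, Notch2 held 48.2% ± 1.68 of the summed RPKM in Jag1+/+ and 48.4% ± 3.63 in Jag1Ndr/Ndr (SD, n = 3 each). Notch1 held 32.4% ± 0.474 and 29.1% ± 4.16 (SD, n = 3 each). Notch3 held 7.59%, 6.36% and 5.11% in Jag1+/+ and 3.89%, 5.05% and 9.34% in Jag1Ndr/Ndr, with a two-sided exact permutation p of 0.9 (smallest possible 0.1). Notch4 held 13.3%, 13.7% and 12.1% in Jag1+/+ and 16.9%, 14.8% and 17.4% in Jag1Ndr/Ndr, also without overlap. The Jag2 and Notch4 shares were singled out after their values were seen and are given without a test. The summed ligands came to 48.6% ± 3.22 of the summed receptors in Jag1+/+ and 49.4% ± 4.47 in Jag1Ndr/Ndr (SD, n = 3 each).

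**Figure D3:**
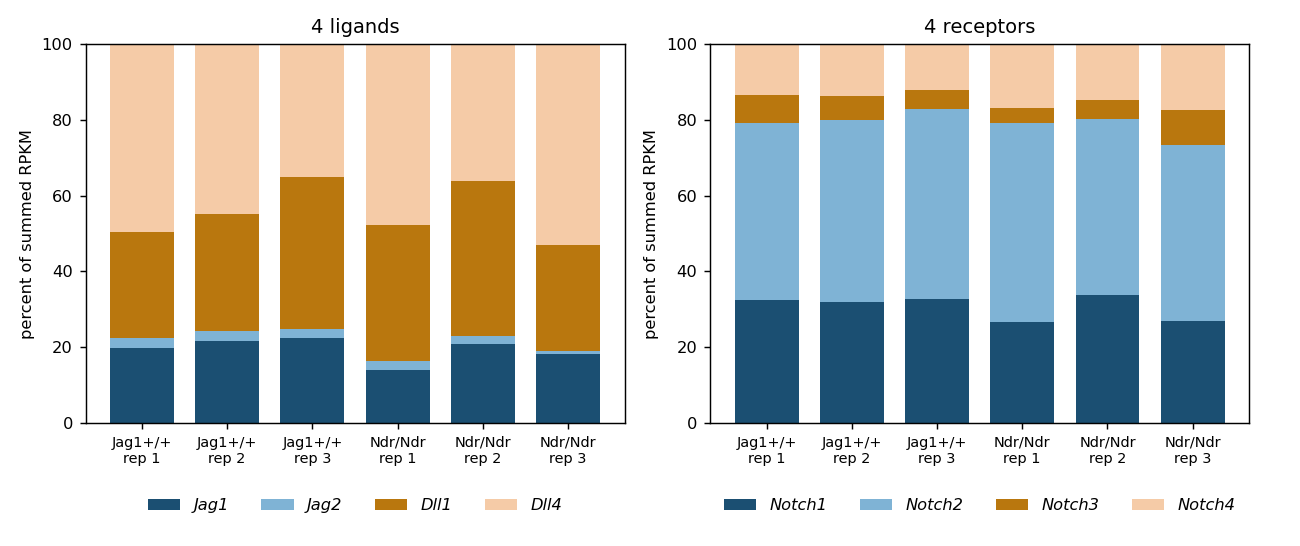
Share of each gene in the summed RPKM of the 4 ligands (left) and of the 4 receptors (right), in percent on a vertical axis from 0 to 100, with 1 stacked bar for each library. Notch2 takes 46.2% to 52.6% of the receptor total in every library, and the Jag1 segment of the ligand bars is smallest in Jag1Ndr/Ndr replicate 1, at 14.1%.

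The rest of the pathway was read from 6 lists of 58 genes, of which 52 were tested. In edgeR 0 of the 52 passed the threshold (4 at an unadjusted p under 0.05), and DESeq2 also called 0, beside 7.63%, 22.5% and 13.7% of all genes by the same 3 rules. The genotypes did not overlap for 4 of the 52, beside 29.0% of all genes. The log2 fold change was positive for 26 and negative for 26, with a median of -0.01. Dll3, a Delta-like protein that does not activate receptors, had no reads in any library, and Dlk2, Dner, Cntn1, Cntn6 and Nov were also too low to test.

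Of 10 genes for cleavage of the receptor (median log2 fold change 0.08), Psen2, a catalytic subunit of gamma-secretase, stood at 50.01 ± 4.32 CPM in Jag1+/+ against 69.8 ± 14.6 CPM in Jag1Ndr/Ndr (SD, n = 3 each). Its log2 fold change was 0.48 with an edgeR adjusted p of 0.170. Without Jag1Ndr/Ndr replicate 2, the library nearest to Jag1+/+, that p was 0.0410, and leaving out any of the other 5 gave 0.238 to 0.404. Aph1a, another subunit, had a log2 fold change of -0.27.

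Of 8 genes that put sugars on the receptor (median 0.02), Mfng, a Fringe enzyme that extends O-fucose and alters which ligand a receptor answers, stood at 3.65, 3.05 and 3.05 CPM in Jag1+/+ and at 5.76, 5.14 and 4.0 CPM in Jag1Ndr/Ndr. The genotypes did not overlap, and the log2 fold change of 0.61 (SE 0.24) had an edgeR adjusted p of 0.171. Pofut1, which adds the O-fucose itself, stood at 25.8, 31.5 and 30.9 CPM in Jag1+/+ and at 23.8, 24.8 and 21.0 CPM in Jag1Ndr/Ndr. It also did not overlap, with a log2 fold change of -0.34 and an edgeR adjusted p of 0.231.

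The 7 genes that act in endocytosis of the ligand had the highest median of the lists, 0.25, with 5 positive and 2 negative. Neurl3 and Epn2, the pair with the smallest p, had log2 fold changes of 0.46 and 0.28 and edgeR adjusted p-values of 0.286 and 0.420. Summed counts of this list were highest in Jag1Ndr/Ndr replicate 1, at 297 CPM, against 203 to 237 CPM in the other 5 libraries. Most of that sum was a single gene, Epn1, at 225 CPM in that library against 131 to 156 CPM in the other 5. The high sum is therefore not a rise shown across the list.

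Of 10 genes for turnover and inhibition of the receptor (median -0.07), Dtx3, of the Deltex family of ubiquitin ligases, stood at 9.67, 11.6 and 8.89 CPM in Jag1+/+ and at 11.9, 16.7 and 16.4 CPM in Jag1Ndr/Ndr. Every Jag1Ndr/Ndr value was above every Jag1+/+ value, and the log2 fold change was 0.58 (SE 0.20, edgeR adjusted p = 0.120). Without Jag1Ndr/Ndr replicate 1, the library nearest to Jag1+/+, that p was 0.0425, and leaving out any of the other 5 gave 0.191 to 0.384. Numb, an adaptor that sends Notch for degradation, stood at 58.4, 57.0 and 54.7 CPM in Jag1+/+ and at 40.2, 50.7 and 43.5 CPM in Jag1Ndr/Ndr, again without overlap. Its log2 fold change was -0.34 (SE 0.14, edgeR adjusted p = 0.207).

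In the nuclear complex, 15 genes had a median log2 fold change of -0.07, and 0 of them passed in edgeR, reached an unadjusted p under 0.05 or passed in DESeq2. Rbpj, which brings the receptor's intracellular part to DNA, stood at 7.39 ± 1.33 CPM in Jag1+/+ against 6.78 ± 0.341 CPM in Jag1Ndr/Ndr (SD, n = 3 each). For the deacetylase Hdac1 the log2 fold change was 0.26, with an edgeR adjusted p of 0.630. Among other ligand-like proteins, Dlk1 had a log2 fold change of -0.76 that rested on Jag1+/+ replicate 1, at 24.0 CPM against 5.50 to 10.2 CPM elsewhere. Without that library it was 0.0088. Egfl7, a secreted endothelial protein, had 0.33, and Jag1Ndr/Ndr replicate 1 carried its highest value, at 74.6 CPM against 33.0 to 48.1 CPM in the others. Without that library its log2 fold change was -0.059.

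**Figure D4:**
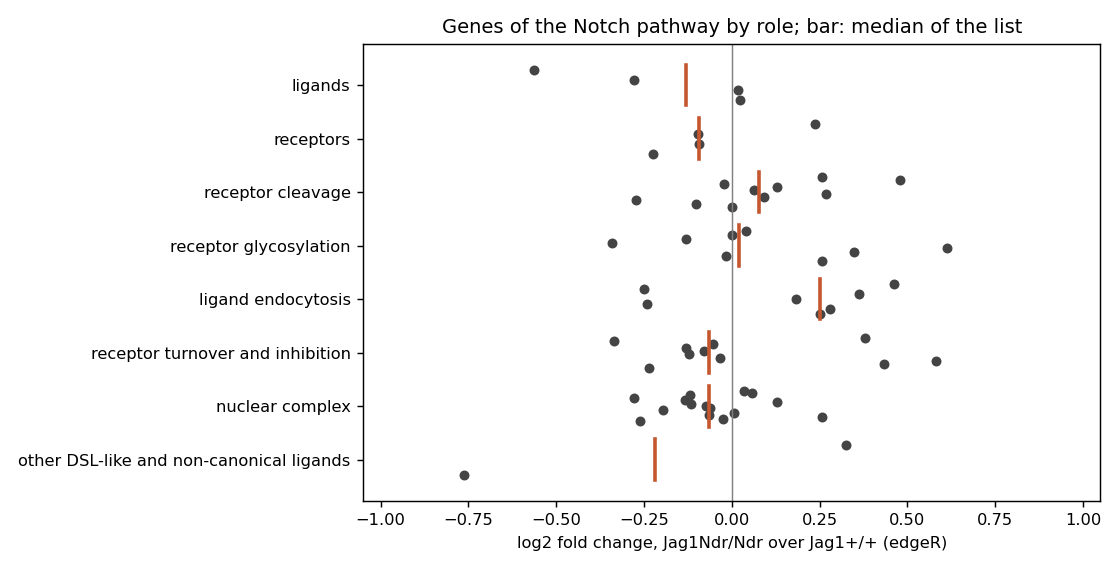
Fitted log2 fold change (edgeR, Jag1Ndr/Ndr over Jag1+/+, horizontal axis) of the tested ligands, receptors and genes of the 6 pathway lists, with 1 point a gene and an orange bar at the list's median. The points lie on both sides of 0 in each of the 8 lists drawn. The list of target genes is not drawn, but its Nrarp and Dtx1 appear under turnover and inhibition. The medians run from -0.22, over the 2 other ligand-like genes, to 0.25 for ligand endocytosis.

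Of 10 target genes of the pathway, 6 could be tested, and Heyl, a Hey-family repressor, was the 1 that passed, with 18.8 ± 0.987 CPM in Jag1+/+ against 6.04 ± 3.06 CPM in Jag1Ndr/Ndr (SD, n = 3 each). Its log2 fold change was -1.61 (SE 0.34, edgeR adjusted p = 0.0279), and the adjusted p was 0.0846 with library totals in place of TMM and 0.0856, 0.0911 and 0.0890 without Jag1+/+ replicate 1, 2 or 3. The log2 fold change in these fits was -1.45, -1.66, -1.62 and -1.60. All 6 targets tested had a negative log2 fold change, with a median of -0.14, beside 6836 negative of 13819 genes tested. Heyl alone passed, beside 2.90% of all genes called lower. Nrarp and Dtx1 are also counted in the list for turnover and inhibition.

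Genes whose pattern over the 6 libraries was most like that of each ligand or receptor were found by the root mean square difference of log2 CPM, each gene centred on its own mean, among 12769 genes of at least 1 CPM. For Notch3 these were Nr2c1, Efnb2 and Hoxb4, at 0.0821, 0.0916 and 0.122, where Notch3's own spread by the same measure was 0.482. Efnb2, a marker of arterial endothelium, stood at 7.30, 6.49 and 5.09 CPM in Jag1+/+ and at 3.10, 4.52 and 9.01 CPM in Jag1Ndr/Ndr, so that its lowest and its highest library were those of Notch3. For Dll4 they were Bmp4, Map2 and Lyve1, at 0.0798, 0.0821 and 0.0856, the last a hyaluronan receptor of sinusoidal and lymphatic endothelium. For Jag1 they were Katnal1, Zfp84 and Hcfc2, with 0.0402 for Katnal1. With 6 libraries of unequal depth and so many genes compared, close matches are a description of these libraries only.

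In promoters, the core motif bound by RBPJ, TGGGAA on either strand, was in 0 of 9 windows around the start sites of the 8 genes, beside 25.56% of 32851 windows. Each window ran from 250 bases before the start to 50 after it, in RefSeq's annotation of GRCm38.

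Markers of other liver cell types were summed in the same way, and members are called by edgeR's adjusted p. By that rule 4.73% of all genes were called higher and 2.90% lower in Jag1Ndr/Ndr. Summed neutrophil markers were 611 to 737 CPM in Jag1+/+ against 1036 to 2301 CPM in Jag1Ndr/Ndr, with 4 of 7 higher. Summed hepatocyte markers were 217134 to 223849 CPM against 102196 to 182688 CPM, with 2 of 8 lower (Ttr and Cyp2e1) and 0 higher, while 2 of the 8 had a positive log2 fold change. Macrophage markers were 632 to 1096 CPM against 1232 to 2138 CPM, with 1 of 8 higher (Cd68), and B lineage markers 56.3 to 82.9 CPM against 15.5 to 53.8 CPM, with 1 of 8 lower (Cd79b). Erythroid markers were 313 to 444 CPM against 383 to 622 CPM, with 2 of 7 higher. Stellate and fibroblast markers were 1076 to 1243 CPM against 845 to 1303 CPM, with Reln alone passing in edgeR, lower. Of these 10, 5 had a positive and 5 a negative log2 fold change. An unadjusted p under 0.05 was reached by 7 of 7 neutrophil, 3 of 8 hepatocyte and 2 of 8 macrophage markers. It was also reached by 3 of 8 B lineage, 5 of 7 erythroid and 6 of 10 stellate markers, beside 22.5% of all genes. In the same order of lists, DESeq2 called 7, 3, 2, 1, 5 and 2, beside 13.7% of all genes. The cholangiocyte list, the cells that line bile ducts, stood at 297 to 395 CPM against 230 to 377 CPM, with 0 of 8 tested passing (edgeR, 0 at an unadjusted p under 0.05, and 0 by DESeq2) and Cftr and Sctr too low to test. The part of these shares in the levels of the Notch genes was not tested.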

How the data were processed

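Liver RNA was measured in 3 Jag1+/+ and 3 Jag1Ndr/Ndr libraries, grouped by their labels. The deposited table holds whole read counts per gene entry, not normalized, and RPKM, which per the file headers the authors scaled by each library's TMM factor (as a multiplier). STAR and mm10 are named in the submitters' processing notes. The tool that counted reads is not given in these sources. Levels between genes and shares use deposited RPKM divided by its factor, which in 8231 well-counted genes matched reads over library total, to within 5%, in 98.2% of values. For tests, counts passing filterByExpr (13819 of 24489 entries) were scaled by TMM and fitted with the two-sided quasi-likelihood test of edgeR 4.0.16, adjusted by Benjamini-Hochberg over all genes tested. Other versions were DESeq2 1.42.0, limma 3.58.1 and R 4.3.3. Each standard error is the fitted log2 value divided by the square root of F, and the common biological coefficient of variation was 0.243. Not used were 93 entries for spike-ins and eGFP, which held 5 reads together.

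The genes and lists were chosen with earlier results of these data known. Lists matched 164 of 166 genes, 2 through an older symbol. Besides the 8 genes, the text names genes of a pathway list past the threshold or else the 2 with the smallest p, and the 3 most alike in pattern. Of these, 1 gene is not reported here. Rbpj and Epn1 were named after their values were seen, as were the marker genes past the threshold. Shares were compared by exact permutation over libraries. Alternatives were RLE factors, library totals, DESeq2, no filter or a stricter one, a replicate block, sex as a covariate, limma on deposited RPKM (pseudocount 1 or 0.1), voom with quality weights and leaving out each library. Header factors used as divisors and a sex by genotype term were added after the data were seen. On simulated counts for 13819 genes, 26 of 100 planted 2-fold changes and 89 of 100 planted 4-fold changes were recovered, with 10 calls among 13619 genes left as they were. Each simulated gene had the same dispersion in both genotypes. In the real libraries the median coefficient of variation was 11.8% in Jag1+/+ and 22.2% in Jag1Ndr/Ndr. The recovery rates therefore do not give the sensitivity of the real comparison. Sequence, exon and overlaps come from GENCODE vM21, and gene positions and promoter windows from RefSeq. Floors cover counting error only.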

Additional observations from a re-analysis of the deposited data

How the results depend on the processing

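None of the 8 ligands and receptors passed the threshold under any of the 17 alternatives. Of 132 fold changes computed for them, 115 kept their direction and 17 reversed, and Jag2 was filtered out under the stricter filter and without Jag1+/+ replicate 2 or 3 or Jag1Ndr/Ndr replicate 2. The median over genes of the shift from the main log2 fold change was 0.13 with library totals. With deposited RPKM it was 0.21 (pseudocount 1) or 0.22 (pseudocount 0.1). Library totals turned Notch2 to 0.039 and Notch3 to 0.053. Deposited RPKM turned Notch2 and Notch3 to 0.14 and 0.078 with a pseudocount of 1, where Jag1 and Notch1 became 0.012 and 0.023, and to 0.15 and 0.049 with 0.1. Sex as a covariate turned Dll4 to -0.086, voom with quality weights turned Notch3 to 0.064, and header factors as divisors, added after the data were seen, turned Dll1 and Dll4 to -0.0067 and -0.0088. Leaving out a library turned Dll1 to -0.12 (Jag1+/+ replicate 1) and -0.17 (Jag1Ndr/Ndr replicate 2), Dll4 to -0.16 (Jag1+/+ replicate 3) and -0.24 (Jag1Ndr/Ndr replicate 3), Notch3 to 0.17 (Jag1Ndr/Ndr replicate 1), Dlk1 to 0.0088 (Jag1+/+ replicate 1) and Egfl7 to -0.059 (Jag1Ndr/Ndr replicate 1). The values without 1 library reached -0.55 for Notch3, -1.15 for Dlk1 and 0.51 for Egfl7 at the other end. The cause was not tested.

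Genes past the threshold numbered 1890 by DESeq2, 1594 with voom quality weights, 661 with the header factors as divisors, 596 with sex as a covariate, 418 and 211 with limma on deposited RPKM (pseudocount 0.1 and 1), and 282 to 1211 without 1 library. The share that was higher was 62.0%, and 74.3% of 816 with library totals, 81.1% and 78.7% with deposited RPKM (pseudocount 0.1 and 1) and 50.8% with the factors as divisors. Pathway genes past it numbered 0 to 1 without 1 library. The Jag1 share of ligands differed by -5.16 to -1.73 percentage points without 1 library, and the Notch3 share of receptors by -1.89 to 0.84. Heyl was also not called with limma on deposited RPKM, at -0.96 and -1.45. Same-numbered libraries correlated at r = 0.0856, 0.170 and 0.195 in their deviations, and libraries with different numbers at -0.169 to -0.0188. The labels do not say what same-numbered libraries share beyond the number, and this was not tested. A replicate block called 1430 genes, 0 of the 8 and 0 pathway genes, and left the Jag1 share difference at -3.55. Jag2 had 4 to 32 reads a library, the lowest depth of the 8 genes.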
